A study of Mus musculus with 8 samples.

Results

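Molar tooth germs of the mouse, held for 1 day with SB431542 at E12.5 (E for embryonic day), were set against molar germs of E13.5 held for 1 day with DMSO, the solvent. SB431542 blocks the kinase of the type I receptors for TGF-beta, activin and nodal, and the comparison asks how far the receptor-inhibited germs stand from the next stage. Members are the genes left after some were taken out by name. Taken out were names starting with Olfr or Vmn (olfactory and vomeronasal receptors), Gm plus digits, and names ending in Rik or containing -ps. Members number 19644 of the 35896 genes in the table, of which 15414 passed the filter on low counts and were tested. Clone-named genes and RIKEN names with a final digit stay among the members. Genes of the excluded names numbered 16252.

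The series holds RNA-seq of cultured molar germs and addresses Smad signalling in dental mesenchyme. Every germ carried BRE-GFP, a reporter transgene in which BMP response elements drive green fluorescent protein, and all were grown in DMEM with fetal bovine serum and GlutaMAX. Besides the SB431542 germs of E12.5 and the DMSO germs of E13.5 there were E12.5 germs with DMSO and E12.5 germs with SIS3, an inhibitor of Smad3, also for 1 day. The sources used here do not give the doses, the number of germs in a sample or whether samples came from separate embryos. The p-values rest on the spread within the pair of SIS3 samples and on values borrowed across genes. They do not measure spread between embryos of the groups compared. No E13.5 germs with SB431542 are among the samples, so stage and inhibitor cannot be told apart within the comparison, and the E12.5 DMSO level is given beside the main results. RNA came from whole germs, which contain epithelium, mesenchyme, vessels and blood, and fewer cells of a type and less RNA per cell cannot be told apart.

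TGF-beta and activin bind paired receptor kinases that phosphorylate Smad2 and Smad3, and these enter the nucleus and raise genes of matrix, of cytoskeleton and of feedback on the pathway itself. Bone morphogenetic proteins act through other type I receptors and Smad1 and Smad5, which SB431542 spares. At these stages the dental epithelium forms a bud that signals by Shh, Wnt, BMP and FGF to a condensing neural-crest mesenchyme, and bone and oral epithelium form close by.

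Each group of the SMARTer kit, which made the libraries of SB431542, E12.5 DMSO and E13.5 DMSO, has 2 deposited columns. Their totals differed by 0.0021% for SB431542 and by 0.0075% for E13.5 DMSO, and over genes with 1 annotated transcript the columns differed by 1.09 and 0.92 times the variance expected if 1 set of reads were divided by chance (3.15 and 2.12 times for genes with 2 to 6 transcripts). For genes with 1 transcript each pair thus differed by no more than about the sampling noise, for others by more, and it was counted as 1 sample, a library of 28161788 counts for SB431542, of 17519118 for E13.5 DMSO and of 30975010 for E12.5 DMSO. Below, values in CPM (counts scaled to a common library total) are given for both columns, and n is 1 library a side. The spread behind each test comes from the SIS3 pair, 2 libraries of another kit (TruSeq), and the fit takes the lone libraries to vary like that pair. The E13.5 library stood apart from the other 4: genes left out by name held 9.40% of its counts against 3.57% to 4.55%, receptor genes 2.01% against 0.537% to 0.834%, and Lars2, a mitochondrial leucyl-tRNA synthetase gene, 3.41% against 1.398% in SB431542, 1.27% in E12.5 DMSO and 0.00695% and 0.00946% in the SIS3 pair. Members with at least 1 count numbered 15315 in it, 17266 in SB431542 and 16678 in E12.5 DMSO, both of which are larger libraries. The SIS3 libraries of the other kit had 15016 and 15292 from only 5995709 and 9427262 counts. For its depth E13.5 thus had few members with a count. The part of these properties in the results below was not tested.

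The SB431542 library stood farther from E13.5 DMSO than from E12.5 DMSO. Over the 11477 members with a mean of at least 5 CPM, the median absolute log2 difference was 0.433 between SB431542 and E13.5 DMSO, 0.166 between SB431542 and E12.5 DMSO and 0.423 between the 2 DMSO libraries, on TMM-scaled log2 CPM. At least 2-fold apart were 16.4% of them between SB431542 and E13.5 DMSO, 1.78% between SB431542 and E12.5 DMSO and 15.004% between the DMSO stages. The 2 SIS3 libraries differed from each other by a median of 0.305, with 7.89% at least 2-fold apart, and the paired columns of 1 library by 0.0807 to 0.101. These pairs share libraries and have 1 library a side, so the distances are descriptions with no test. Between SB431542 and E13.5 DMSO, 916 were at least 2-fold higher at E13.5 and 970 at least 2-fold lower. Members at 5 CPM or more in SB431542 and at 3 counts or fewer at E13.5 numbered 15, and 45 showed the opposite. Against E12.5 DMSO the same criteria gave 1 and 0.

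**Figure D1:**
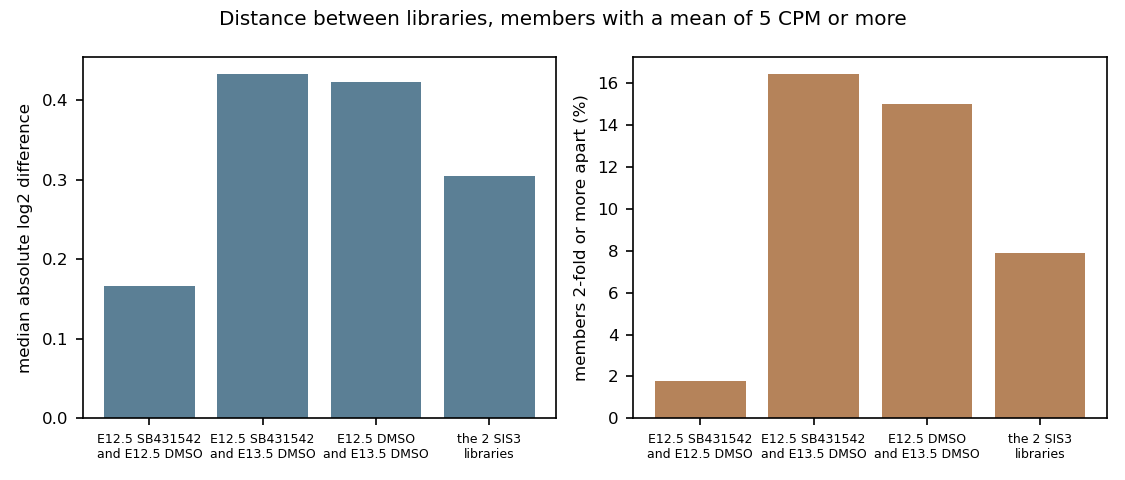
Median absolute log2 difference (left) and share of members at least 2-fold apart (right, percent) for 4 pairs of libraries, over members with a mean of 5 CPM or more; each bar is 1 pair of libraries. The 2 bars that involve E13.5 DMSO stand at 0.433 and 0.423, above the bar of SB431542 and E12.5 DMSO at 0.166.

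The quasi-likelihood test of edgeR, with Benjamini-Hochberg adjusted p under 0.05 over the whole table, called 163 members higher (1.06%) and 225 lower (1.46%) in SB431542 than at E13.5, 2.52% in either direction. At an unadjusted p under 0.05 there were 1415 higher (9.18%) and 1458 lower (9.46%). The smallest called difference was 1.29 on the log2 scale, and the median 95% confidence interval of a member reached 1.08 to either side. The count depends on which genes enter the fit: fitted on the members alone it was 12 higher and 17 lower, and with genes under a mean of 5 CPM left out 5 higher and 11 lower. Without the first E13.5 column it was 53 and 84, without the second 44 and 68, and without the second SB431542 column 120 and 146. Of 71 called genes named below, 10 kept their call under all 14 alternatives that treat paired columns as 1 library: Aspn, Sostdc1, Ibsp, Krt13, Krt4, Fsip2, Kcnj11, Tmeff2, Zfp808 and Ccdc107. Pmepa1, Chac1, Rps28 and mt-Nd6 lost theirs only among genes of 5 CPM or more. The other 57 lost theirs in the fit on the members alone, among them Col4a1, Col11a1, Gli1 and Skil, which also lost them when either E13.5 column was left out.

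**Figure D2:**
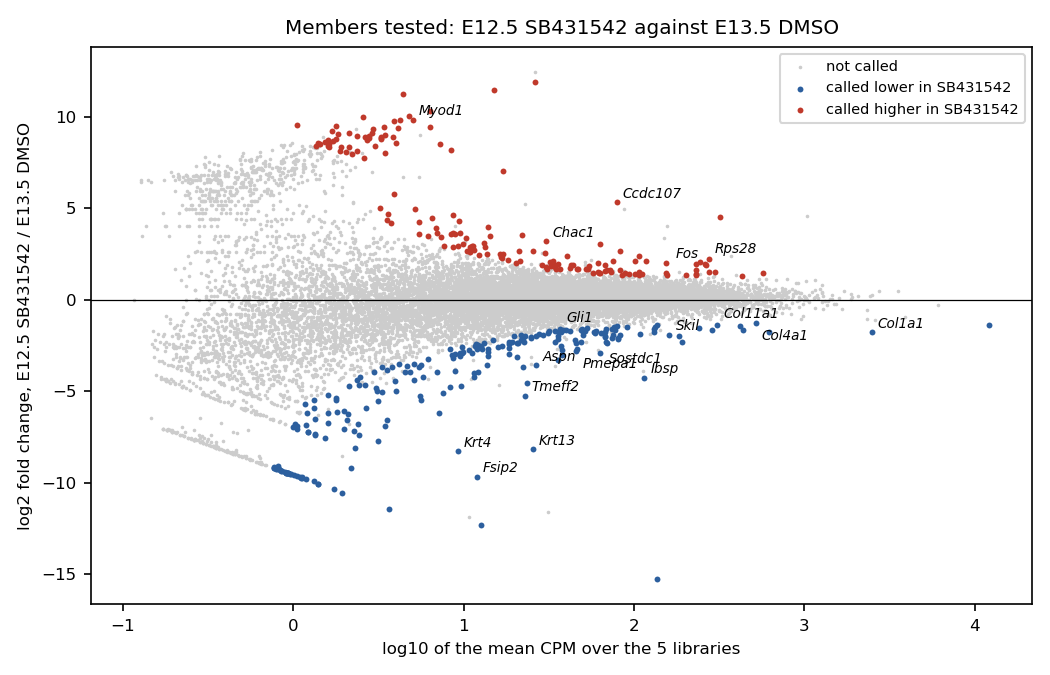
Log2 fold change of SB431542 at E12.5 over DMSO at E13.5 (vertical axis) against log10 of the mean CPM over 5 libraries (horizontal axis) for the 15414 tested members; blue points are the 225 called lower, red the 163 called higher, grey the rest. Bands of points beyond 6 on either side at the left are members at or near 0 counts in 1 of the libraries.

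Genes that respond to TGF-beta and activin were lower in SB431542 than at E13.5 where they were called. Of 36 tested feedback and Smad2/3 target genes, 5 fell and 0 rose, and their median log2 fold change was -0.46, that of all tested members 0.06. Over all tested members 1.46% were called lower and 1.06% higher. Pmepa1 (ENSMUSG00000038400, GRCm38 chr2:173224458-173276533, minus strand), whose membrane protein holds back receptor signalling and is itself induced by Smad3, stood at 13.2 and 13.49 CPM in the SB431542 columns, 49.1 and 49.3 in E12.5 DMSO and 91.6 and 86.3 in E13.5 DMSO. The 3 libraries stood in that order, and the log2 fold change of SB431542 over E13.5 was -2.82 (SE 0.419, adjusted p = 0.00385). Skil (ENSMUSG00000027660, GRCm38 chr3:31095058-31122577, plus strand), encoding the Smad corepressor SnoN, stood at 49.5 and 47 CPM with SB431542, 170.3 and 172 in E12.5 DMSO and 178 and 161 at E13.5 (-1.90, SE 0.402, adjusted p = 0.0271). Its 2 DMSO libraries stood close together and SB431542 lower. Lox, the lysyl oxidase that crosslinks collagen and elastin, had a log2 fold change of -1.74 (adjusted p = 0.0181), and Ltbp2, a microfibril protein of the latent TGF-beta binding family, of -4.76 (adjusted p = 0.0082). The fifth was Tagln, an actin-binding protein of smooth muscle (-2.30, adjusted p = 0.023). It shares 62.2% of its 31-base words with other genes, so its counts could be divided among copies and are uncertain.

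Other targets of the pathway were not called. Smad7, the inhibitory Smad, stood at 91.7 and 93.6 CPM with SB431542, 124 and 117 in E12.5 DMSO and 79.1 and 80.1 at E13.5 (0.14, adjusted p = 0.846). The secreted Tgfbi was at 118 and 130.2 CPM with SB431542 against 81.6 and 77.1 at E13.5 (0.56, adjusted p = 0.584). Ccn2, encoding the connective tissue growth factor, was at 29 and 30.3 against 47.7 and 63.1 CPM (-0.99, adjusted p = 0.332). Fst, the activin antagonist follistatin, stood at 21.7 and 28.8 against 70 and 65.1 CPM (-1.50), with an adjusted p of 0.0646. Among 21 tested ligands, receptors and Smads, 0 fell and 1 rose, with a median of 0.43, where 1.06% of all tested members were called higher. The riser was Mstn, the muscle ligand myostatin, at 7.24 and 7.03 CPM with SB431542 and 2.39 and 2.71 in E12.5 DMSO, and at 0 counts at E13.5, at least 41.7-fold higher against a floor of 3 counts (adjusted p = 0.0119). Inhba, the activin A subunit, was at 116 and 116 against 207 and 216 CPM (-0.95, adjusted p = 0.539). Tgfb1 had -1.44 (adjusted p = 0.0868) and Tgfb2 1.08 (adjusted p = 0.106).

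Hedgehog signalling turns on its own receptor Ptch1 and the effector Gli1, which therefore serve as readouts. Of 16 tested genes of the pathway 2 fell and 0 rose, with a median of -0.12, where 1.46% of all tested members were called lower. Gli1 (ENSMUSG00000025407, GRCm38 chr10:127329882-127341974, minus strand) stood at 31.5 and 32 CPM in the SB431542 columns, 91.6 and 91.2 in E12.5 DMSO and 103 and 105 at E13.5, and -1.79 (SE 0.393, adjusted p = 0.0271) on the log2 scale was the change against E13.5. Ptch1 (ENSMUSG00000021466, GRCm38 chr13:63508328-63573598, minus strand) stood at 182 and 174 CPM with SB431542, 339 and 343 in E12.5 DMSO and 519 and 521 at E13.5 (-1.63, SE 0.346, adjusted p = 0.0239). For both genes E12.5 DMSO lay between the others and nearer E13.5. Hhip, a secreted inhibitor and another target, was at 7.24 and 7.31 CPM with SB431542, 11.2 and 12.4 in E12.5 DMSO and 31.1 and 28.8 at E13.5, and its -2.12 missed the threshold (adjusted p = 0.0644). The ligand Shh, made by the dental epithelium, had 3 counts with SB431542, 6 in E12.5 DMSO and 0 at E13.5, did not pass the filter, and gives no comparison at this depth, since 0 counts allow up to 0.171 CPM.

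Sostdc1 (ENSMUSG00000036169, GRCm38 chr12:36314139-36318452, plus strand), a secreted antagonist of BMP and Wnt that limits tooth number, was the 1 gene of 27 tested in the BMP list that fell, and 0 rose (median -0.01). It stood at 26.8 and 28.6 CPM with SB431542, 61 and 63.2 in E12.5 DMSO and 192 and 194 at E13.5 (-2.88, SE 0.387, adjusted p = 0.00176). The share of all tested members called lower was 1.46%. The ligand Bmp4 was at 65.4 and 70.2 against 86 and 92.5 CPM (-0.48, adjusted p = 0.47). Id1, a direct BMP target, stood at 72.9 and 71.9 CPM with SB431542, 68.1 and 63.9 in E12.5 DMSO and 25.7 and 26.3 at E13.5 (1.40, adjusted p = 0.0954). Of 17 FGF and 28 Wnt pathway genes tested, 0 were called in either direction at the adjusted threshold, with medians of 0.30 and -0.19. At an unadjusted p under 0.05 there were 3 lower and 1 higher in each. Fgf3, a growth factor of the dental mesenchyme, was at 2.27 and 3.05 against 15.5 and 18.5 CPM (-2.76, adjusted p = 0.0796), and the Wnt antagonist Dkk1 at 1.56 and 1.85 against 11.2 and 13.9 CPM (-2.96, adjusted p = 0.069). Lef1, the Wnt effector, was at 199.7 and 200.1 against 142 and 156 CPM (0.34, adjusted p = 0.582).

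Matrix genes were lower in SB431542 wherever they were called, in collagens, basement membrane, elastic fibres and proteoglycans. Of 11 fibrillar collagens 2 fell (median -1.03), of 12 other interstitial collagens 3 (-0.90), of 29 basement membrane genes 2 (-0.48), of 19 elastic fibre genes 5 (-0.56), of 11 small leucine-rich proteoglycans 1 (-1.35) and of 25 matricellular genes 0 (-0.48). No member of these lists rose, and the median of all tested members was 0.06. Called lower were 1.46% of all tested members. At an unadjusted p under 0.05 the matricellular list had 6 lower and 0 higher. It differed by a median of 0.675 between the 2 SIS3 libraries. DESeq2's Wald test called 1 gene of that list, Thbs2, lower and 0 higher. Below 0 were 10 of the 11 fibrillar and 12 of the 12 other interstitial collagens.

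Col11a1 (ENSMUSG00000027966, GRCm38 chr3:114030540-114220718, plus strand), the fibril-nucleating collagen of cartilage and of early mesenchyme, stood at 286 and 283 CPM in SB431542, 431 and 399.9 in E12.5 DMSO and 723 and 727 at E13.5 (-1.43, SE 0.331, adjusted p = 0.033). Col1a1, the main chain of bone and connective tissue collagen, stood at 1892 and 1900.2 CPM with SB431542, 3325 and 3343 in E12.5 DMSO and 5950.4 and 6014 at E13.5 (-1.74, adjusted p = 0.00939), and its partner chain Col1a2 at 2000.1 and 1973 against 3872 and 3892 CPM missed the threshold (-1.05, adjusted p = 0.0704). The basement membrane chains Col4a1 (ENSMUSG00000031502, GRCm38 chr8:11198423-11312826, minus strand) and Col4a2 are read in opposite directions from 1 region, and their gene models overlap by a few bases at their starts. Col4a1 was at 475 and 479 CPM with SB431542, 592 and 572 in E12.5 DMSO and 1081 and 1123 at E13.5 (-1.29, SE 0.324, adjusted p = 0.0431), and Col4a2 had -1.38 (adjusted p = 0.04). For these 4 called chains SB431542 was lowest and E13.5 highest. Cartilage collagen Col2a1, at 144 and 158 against 229.7 and 229 CPM, was not called (-0.69, adjusted p = 0.911). Nor were fibronectin, Fn1 (-0.52, adjusted p = 0.331), and periostin, Postn (-0.43, adjusted p = 0.815).

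Aspn (ENSMUSG00000021388, GRCm38 chr13:49544443-49567565, plus strand), encoding asporin, a small proteoglycan that binds collagen and TGF-beta, stood at 4.55 and 5.75 CPM with SB431542, 34.5 and 36.5 in E12.5 DMSO and 58.4 and 56.4 at E13.5. Its log2 fold change was -3.56 (SE 0.491, adjusted p = 0.00218), and E12.5 DMSO again lay nearer E13.5. The other interstitial collagens that fell were Col8a2, a short-chain collagen (-2.10, adjusted p = 0.00931), and the beaded-filament chains Col6a2 (-1.75, adjusted p = 0.0125) and Col6a1 (-1.64, adjusted p = 0.0189). Elastic fibre genes that fell, besides Ltbp2 and Lox, were Loxl1, a crosslinking enzyme of elastin (-2.16, adjusted p = 0.00911), Mfap4, a microfibril glycoprotein (-1.94, adjusted p = 0.0123), and Eln, elastin itself (-1.88, adjusted p = 0.0157). Mfap4 stood at 31.5 and 31.2 CPM with SB431542, 153 and 155 in E12.5 DMSO and 118 and 108 at E13.5, so that E12.5 DMSO was highest.

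The 250 bases before the RefSeq start of 2 of these matrix genes, which fell together, are printed below to show how unlike their upstream sequences are. Both are from GRCm38.p6, plus strand, and overlap 0 exon bases of the annotation. That of Aspn is chr13:49544193-49544442 and that of Col11a1 is chr3:114030290-114030539. Capitals mark the TATA motif TATAAA on either strand.
Aspn: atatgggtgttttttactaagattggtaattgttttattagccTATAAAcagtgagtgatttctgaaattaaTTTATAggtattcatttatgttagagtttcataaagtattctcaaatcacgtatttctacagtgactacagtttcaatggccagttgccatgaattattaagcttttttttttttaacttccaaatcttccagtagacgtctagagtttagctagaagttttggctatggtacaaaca
Col11a1: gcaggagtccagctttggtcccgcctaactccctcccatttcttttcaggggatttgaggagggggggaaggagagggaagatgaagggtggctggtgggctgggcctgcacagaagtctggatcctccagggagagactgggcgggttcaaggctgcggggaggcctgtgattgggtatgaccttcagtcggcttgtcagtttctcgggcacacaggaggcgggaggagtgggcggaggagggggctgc
Bases G and C make up 30.0% of the Aspn window and 62.4% of the Col11a1 window, where the median of 32851 windows was 52.4%. Aspn holds 2 matches of TATAAA, a motif that 12.4% of all windows of this length hold, and Col11a1 holds 0. Both matches lie nearer the far end of the window than the start of the gene. GACCACCCA (a GLI motif, in 0.225% of windows), GTCTAGAC (Smad, 0.167%) and AACCACA (RUNX, 4.396%), each searched on both strands, matched in neither window nor in that of Hhip, which says only that these letters are not there. Of 6 genes looked up by symbol Aspn, Col11a1 and Hhip had a window, and Pmepa1, Skil and Gli1 did not.

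**Figure D3:**
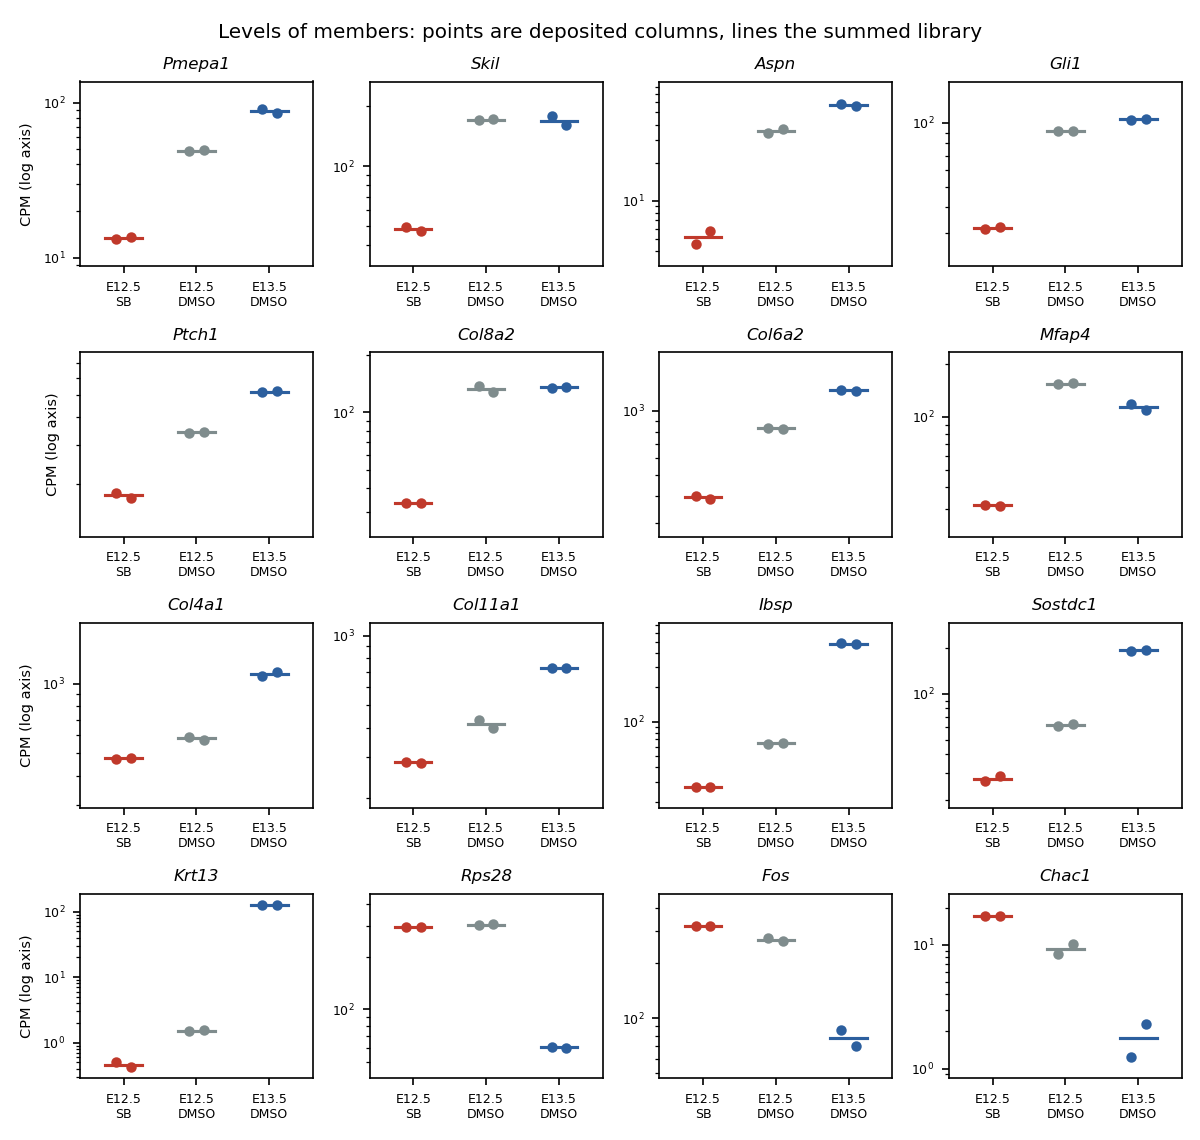
Level in CPM (log axis, ranges differ between panels) of 16 members in SB431542 at E12.5 (red), DMSO at E12.5 (grey) and DMSO at E13.5 (blue); points are the 2 deposited columns and lines the summed library. Skil, Col8a2 and Gli1 show DMSO libraries side by side above SB431542, whereas in Krt13, Ibsp, Rps28 and Fos the E13.5 library stands apart from both at E12.5.

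Among the skeletal lists the largest called difference was in a bone matrix gene. Ibsp (ENSMUSG00000029306, GRCm38 chr5:104299171-104311469, plus strand), encoding bone sialoprotein, stood at 26.7 and 26.9 CPM with SB431542, 63.8 and 65.7 in E12.5 DMSO and 485 and 478 at E13.5 (-4.25, SE 0.407, adjusted p = 8.25e-05). Of 22 osteogenic genes 2 fell (Ibsp and Col1a1) and 0 rose, with a median of -0.98, and of 18 cartilage genes 1 fell (Col11a1) and 0 rose, with -0.69. The share called lower over all tested members was 1.46%. The cartilage list differed by a median of 2.24 between the 2 SIS3 libraries, which share a treatment. The bone-lineage transcription factors were not called: Runx2 was at 292 and 319.9 against 318 and 309 CPM (-0.12, adjusted p = 0.871) and Sp7 at 60.6 and 47.9 against 82.9 and 87.3 (-0.73, adjusted p = 0.266). Dmp1, a matrix protein of bone and dentine cells, was at 1.07 and 1.49 against 11.4 and 11.2 CPM (-3.22, adjusted p = 0.0644). Sox9, the cartilage regulator, was at 84.9 and 88 against 59.9 and 54.5 CPM (0.51, adjusted p = 0.445).

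Listed genes of the odontogenic mesenchyme were present in the 3 libraries. Of 39 tested genes of odontogenic mesenchyme none was at 0 counts in SB431542 or at E13.5, 2 fell (Gli1 and Ptch1, given above) and 0 rose, with a median of 0.06, and their summed level was 7975 CPM with SB431542, 8560 in E12.5 DMSO and 6844 at E13.5. Called lower were 1.46% of all tested members. Msx1, a homeobox gene of the tooth mesenchyme, stood at 320.4 and 321 CPM with SB431542, 467 and 476 in E12.5 DMSO and 361 and 364 at E13.5 (-0.26, adjusted p = 0.689). Pax9, needed for teeth to pass the bud stage, was at 366 and 362 against 273 and 267 CPM (0.35, adjusted p = 0.67), and Osr2, which restrains tooth formation on the lingual side, at 229.9 and 228 against 106 and 103 (1.05, adjusted p = 0.153).

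The summed level of dental epithelium genes was 388 CPM with SB431542, 581 in E12.5 DMSO and 772 at E13.5. Of 32 tested 1 fell (Sostdc1), 0 rose and 27 lay below 0, with a median of -1.27, and of the 37 in the list 3 were at 0 counts with SB431542, 0 in E12.5 DMSO and 7 at E13.5. The share of all tested members called lower was 1.46%. Krt14, a keratin of basal epithelium, stood at 4.55 and 5.4 CPM with SB431542, 32.4 and 34.3 in E12.5 DMSO and 59.5 and 54.6 at E13.5, and was not called (-3.60, adjusted p = 0.276). The median difference of this list between the 2 SIS3 libraries, which share a treatment, was 1.76.

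Surface epithelium had the lowest median of the 32 lists. Of 17 tested genes 3 fell, 0 rose and 14 lay below 0, with a median of -2.02, where 1.46% of all tested members were called lower. Between the 2 SIS3 libraries this list differed by a median of 0.949. The summed level of the 27 listed genes was 31.5 CPM with SB431542, 96.3 in E12.5 DMSO and 267 at E13.5, and 5, 2 and 8 of them were at 0 counts. Krt13 (ENSMUSG00000044041, GRCm38 chr11:100117327-100121566, minus strand), a keratin of oral lining, stood at 0.497 and 0.426 CPM with SB431542, 1.49 and 1.55 in E12.5 DMSO and 125 and 125 at E13.5 (-8.14, SE 0.695, adjusted p = 3.66e-05). Krt4, its usual partner, was at 0.142 and 0.142 CPM with SB431542, 2.2 and 2.71 in E12.5 DMSO and 42.5 and 44.5 at E13.5 (-8.27, SE 0.934, adjusted p = 0.000368). In Krt17, a keratin of appendage buds and stressed epithelium, the order differed: 0.781 and 0.497 CPM with SB431542, 15.9 and 16.6 in E12.5 DMSO and 14.5 and 17.2 at E13.5 (-4.70, adjusted p = 0.0077), with the DMSO libraries at similar levels. How much oral lining each dissection held was not tested.

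Markers of other cells are given by list, where 2.52% of all tested members were called in either direction. Of 24 endothelial genes 0 were called (1 lower and 2 higher at an unadjusted p under 0.05), with a median of 0.17 and summed levels of 779 CPM with SB431542 and 686 at E13.5. Macrophage and leukocyte genes, 22 tested, also had 0 calls (6 lower and 0 higher unadjusted), with a median of -1.09 and summed levels of 146 and 300.0 CPM. The 18 tested pericyte and smooth muscle genes had 1 lower (Tagln) and 0 higher, and the 18 of neurons and Schwann cells 0 calls with 1 lower and 1 higher unadjusted. Of 22 skeletal muscle genes 3 rose and 0 fell, with a median of 1.23. Myod1, the myogenic master regulator, was at 5.97 and 6.82 CPM with SB431542 and 7.75 and 7.68 in E12.5 DMSO and at 0 counts at E13.5, at least 37.3-fold higher (adjusted p = 0.00749), and the muscle stem cell gene Pax7 was at 4.62 and 3.84 with SB431542, 3.87 and 3.29 in E12.5 DMSO and 0 counts at E13.5 (at least 24.7-fold, adjusted p = 0.0252). The third was troponin C gene Tnnc2 (adjusted p = 0.0349), which shares 59.0% of its 31-base words with other genes and is uncertain. Summed muscle levels were 1067 and 945 CPM, 1 of the 24 listed genes was at 0 counts with SB431542 and 8 at E13.5. Of 16 erythroid genes 1 rose, the embryonic globin gene Hbb-bh1 (3.91 and 4.9 against 0.228 and 0.457 CPM, log2 fold change 3.58, adjusted p = 0.0322). The median of that list was 1.33, or 1.00 with genes at 0 counts set at their bound, and summed levels were 1166 and 481 CPM. Between the 2 SIS3 libraries the erythroid list differed by a median of 1.06. The share of blood and muscle in each germ was not tested beyond these levels.

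**Figure D4:**
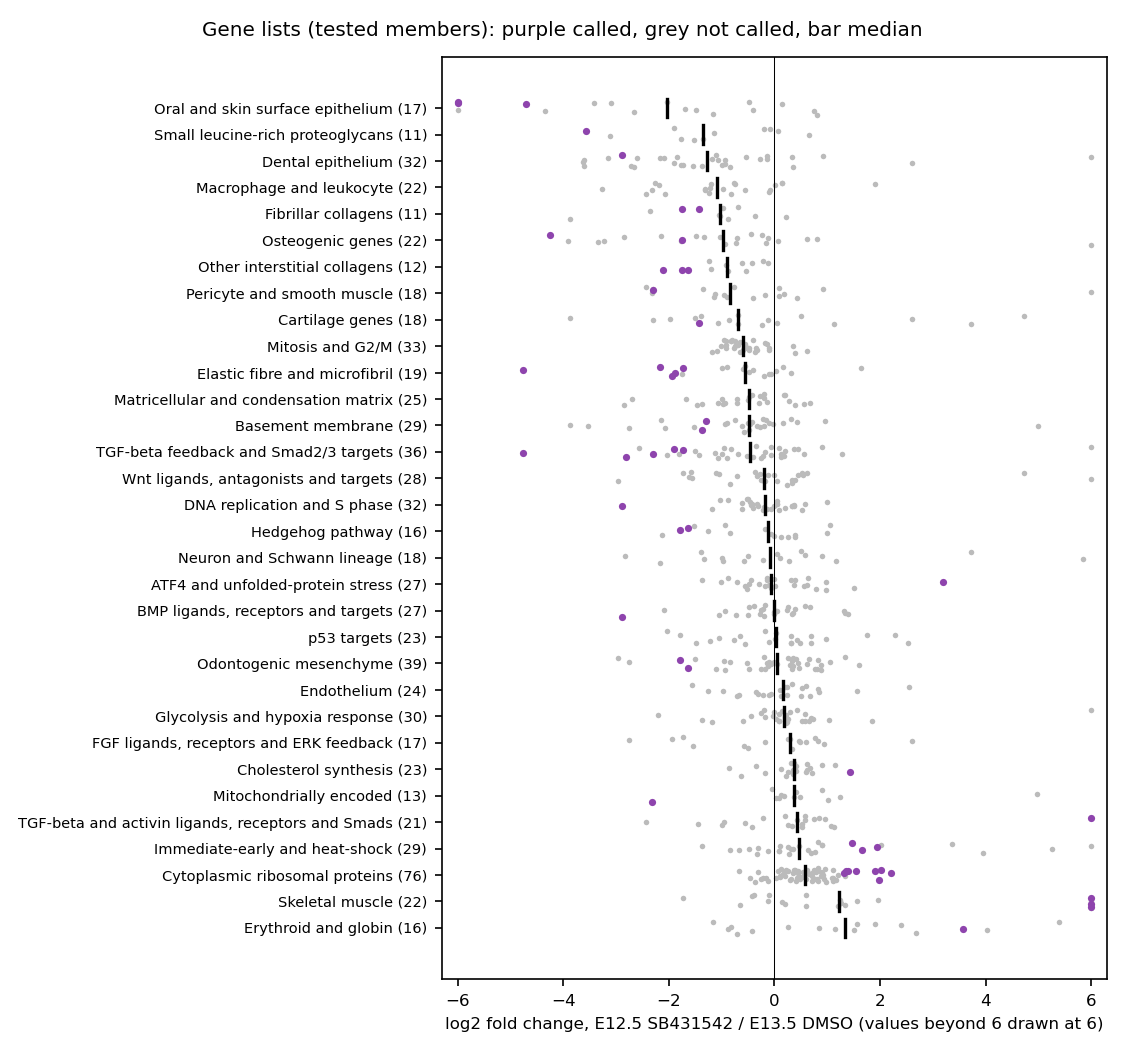
Log2 fold change of SB431542 at E12.5 over DMSO at E13.5 (horizontal axis) for the tested members of 32 lists (number tested in brackets), sorted by median; purple points are called members, grey the rest, black bars medians. Surface epithelium has the lowest median, -2.02, and the erythroid list the highest, 1.33.

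Cytoplasmic ribosomal protein genes, the largest list, had most risers by number: 8 of 76 rose and 0 fell, 68 lay above 0, and the median was 0.58. By share, skeletal muscle (3 of 22) stood higher and immediate-early and heat-shock genes (3 of 29) close by. Over all tested members 1.06% were called higher. Rps28 (ENSMUSG00000067288, GRCm38 chr17:33819027-33824562, minus strand) stood at 297 and 296 CPM with SB431542, 304 and 307 in E12.5 DMSO and 60.8 and 60.2 at E13.5 (2.21, SE 0.346, adjusted p = 0.00495). Rpl27 (2.03, adjusted p = 0.00883), Rps21 (1.98, adjusted p = 0.00934) and Rpl34 (1.90, adjusted p = 0.0113) followed, and for these 4 genes the E12.5 libraries were close and E13.5 stood apart. Ribosomal genes have many processed copies, and these 4 share 10.4% to 24.8% of their 31-base words with other genes. Called members higher in SB431542 had a median transcript length of 2860 bases, those lower 3597.5, and all tested members 3430.5. When trends on GC content and transcript length were removed from each library, an alternative added after the data were seen, 39 higher and 52 lower members were called, Rps28, Rpl27, Rps21 and Rpl34 among them. Of the 71 called genes named, 38 kept their call there and 33 lost it, among the latter Skil, Tagln, Gli1, Ptch1, Col1a1, Col11a1, Col4a1, Col4a2, Eln, Pax7, Tnnc2, Hbb-bh1, Klf6, Dusp1, Insig1, E2f2, Cyp1b1, Spock2 and Penk.

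Of 29 immediate-early and heat-shock genes 3 rose and 0 fell, with a median of 0.47, where 1.06% of all tested members were called higher. Between the 2 SIS3 libraries the list differed by a median of 0.479. The transcription factor gene Fos stood at 319 and 320.2 CPM with SB431542, 273 and 264 in E12.5 DMSO and 85.8 and 70.1 at E13.5 (1.95, SE 0.343, adjusted p = 0.00942), Klf6 had 1.47 (adjusted p = 0.0389) and the phosphatase gene Dusp1 1.66 (adjusted p = 0.0391). Chac1, a glutathione-degrading enzyme induced by ATF4, was the 1 riser among 27 stress genes (median -0.07), at 17.3 and 17.1 CPM with SB431542, 8.46 and 10.2 in E12.5 DMSO and 1.26 and 2.28 at E13.5 (3.19, SE 0.492, adjusted p = 0.00448). Of its 3 libraries SB431542 was highest. Insig1, a sterol sensor, was the 1 riser among 23 cholesterol genes (1.43, adjusted p = 0.0439). Of 23 p53 targets and 30 glycolysis and hypoxia genes 0 were called (2 lower and 3 higher, and 2 lower and 2 higher, at an unadjusted p under 0.05).

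Cell cycle genes gave 1 call, where 2.52% of all tested members were called in either direction. Of 33 mitotic genes 0 were called (1 lower and 0 higher unadjusted), although 30 lay below 0 with a median of -0.60. The same list differed by a median of 1.57 between the 2 SIS3 libraries. Mki67, the proliferation marker, was at 265 and 266 CPM with SB431542, 412 and 439 in E12.5 DMSO and 472 and 469.9 at E13.5 (-0.91, adjusted p = 0.762). Of 32 replication genes E2f2, an activating E2F factor, fell (-2.89, adjusted p = 0.0342) and the median was -0.17. Among 13 mitochondrially encoded genes mt-Nd6, the 1 complex I subunit gene on the light strand, fell, at 138 and 133 CPM with SB431542, 91.3 and 86.3 in E12.5 DMSO and 632 and 635 at E13.5 (-2.31, SE 0.354, adjusted p = 0.00447), while 11 of the 13 lay above 0. Lars2, named above for its share of the counts, was also called lower in SB431542 (log2 fold change -1.37, adjusted p = 0.027). In the FGF, Wnt, endothelial, macrophage, neuron, p53, glycolysis and mitotic lists, where edgeR made 0 calls, DESeq2's Wald test made 0 as well. In some other lists the tools differed. In skeletal muscle DESeq2 called 1 gene, Myod1, and neither Pax7 nor Tnnc2, and in erythroid genes 3, with Hbb-y and Slc4a1 higher besides Hbb-bh1. It called 3 dental epithelium genes, adding Krt14 and Krt15 on the lower side, 4 surface epithelium genes, adding Krt6a, and 4 of basement membrane, adding Col17a1 and Frem2. It called 1 more lower in the TGF-beta target list (Angptl4) and among other interstitial collagens (Col16a1), and 1 more higher among immediate-early and heat-shock genes (Hspa1a) and mitochondrially encoded genes (mt-Nd3).

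The called members with the largest log2 fold changes, among those averaging at least 5 CPM and sharing under 50% of their 31-base words with other genes, were taken next. Of the 12 largest falls, 10 reached the mean of 5 CPM only through the E13.5 library. Fsip2, a sperm tail sheath gene, had 2 counts in the SB431542 library and 1 in E12.5 DMSO and stood at 70.8 and 48.3 CPM at E13.5, an 838-fold ratio whose 95% counting interval is 231 to 6931. Kcnj11, a potassium channel subunit, was at 0.426 and 0.568 against 37.2 and 32.1 CPM (-6.19, adjusted p = 0.00214), and Tmeff2, a transmembrane protein with follistatin-like domains, at 2.56 and 3.48 against 112 and 102 (-5.23, SE 0.581, adjusted p = 0.000324). For these 3 genes both E12.5 libraries were low and E13.5 stood apart. The others of the 12 were Krt4, Krt13, Krt17, Ibsp, Ltbp2, Pkd1l3, A2m, Xkrx and Bin2, with log2 fold changes from -8.27 to -4.25.

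Of the 12 largest rises, Myod1, Arsg and Stc2 were at 0 counts at E13.5. Arsg, a lysosomal sulfatase, was at 2.84 and 2.27 CPM with SB431542 (at least 14.9-fold higher) and the glycoprotein gene Stc2 at 1.49 and 2.56 (at least 11.8-fold). Arsg and Stc2 reached the mean of 5 CPM only through libraries outside the comparison, and Arsg averaged 7.24 CPM over the 5 libraries. Ccdc107 (ENSMUSG00000028461, GRCm38 chr4:43492900-43495921, plus strand) stood at 163 and 154 CPM with SB431542, 209 and 212 in E12.5 DMSO and 3.65 and 3.77 at E13.5 (5.33, SE 0.465, adjusted p = 3.66e-05). Zfp808, a zinc finger gene that shares 43.2% of its 31-base words with other genes, was at 16.2 and 17.3 against 0.114 and 0.114 CPM, a ratio of 147 with a counting interval of 40.3 to 1213. H2-D1, a class I histocompatibility gene, was at 27.6 and 27.2 CPM with SB431542, 20.5 and 18.9 in E12.5 DMSO and 1.71 and 1.6 at E13.5 (3.96, adjusted p = 0.00672). Taf9b, at 5.54 and 6.18 CPM with SB431542 and 3 counts at E13.5, had a ratio of 34.2 with a counting interval of 11.5 to 168. Mapkapk3, Atp2a1, Mgst1, Hgfac and Tmc7 make up the rest, with log2 fold changes from 4.64 to 3.93. Across all called members, 51 of the 163 higher were at 0 counts at E13.5 and 36 of the 225 lower at 0 with SB431542. Called members that share 50% or more of their 31-base words with other genes, and whose values are uncertain, numbered 17 higher and 15 lower.

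The E12.5 DMSO library, which is on neither side of the comparison, was then placed between the 2 levels on the log2 scale for each called member. Of the 225 called lower, it was at or beyond the SB431542 level for 113 (50.2%), between and nearer SB431542 for 88 (39.1%), nearer E13.5 for 21 (9.33%) and at or beyond the E13.5 level for 3 (1.33%). For the 163 called higher the numbers were 54, 106, 2 and 1. For most called members the E12.5 DMSO level was thus on the SB431542 side. Members 2-fold or more lower that were not called, 2391 in number, had 11.1% nearer E13.5 and 2.05% beyond it, against 9.33% and 1.33% of the called. On the higher side the 1878 uncalled had 7.51% nearer E13.5 and 1.92% beyond it, against 1.23% and 0.613% of the called. This is a description with no test, since the members were taken for the gap between the other 2 libraries.

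**Figure D5:**
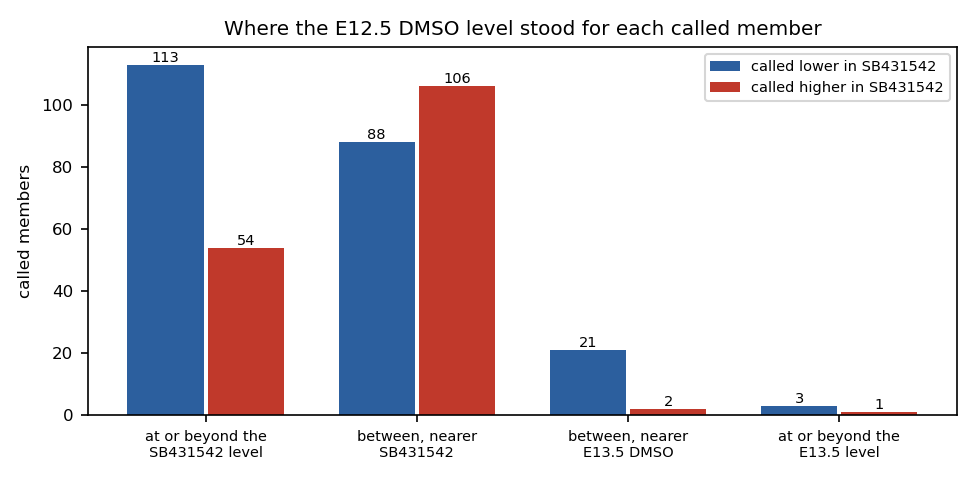
Number of called members (vertical axis) by where the E12.5 DMSO level stood relative to SB431542 at E12.5 and DMSO at E13.5, for the 225 called lower (blue) and the 163 called higher (red). The bars on the E13.5 side hold 21 and 3 of the lower and 2 and 1 of the higher members.

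The 24 lower members with E12.5 DMSO on the E13.5 side, chosen after their values were seen, are Pmepa1, Skil, Gli1, Ptch1, Aspn, Krt17, Col8a2, Col6a1, Col6a2, Mfap4, Eln, Lox and E2f2, given above, and 11 others. Cyp1b1, a cytochrome of retinoid and steroid metabolism, stood at 11.1 and 10.7 CPM with SB431542, 66.6 and 64.6 in E12.5 DMSO and 70.4 and 66.4 at E13.5 (-2.74, adjusted p = 0.0239). Spock2, a matrix proteoglycan, was at 18.9 and 21.4 CPM with SB431542, 77.9 and 70.8 in E12.5 DMSO and 92 and 98.2 at E13.5 (-2.32, adjusted p = 0.0113), and Enpp1, which makes the mineral inhibitor pyrophosphate, at 17.2 and 16 CPM with SB431542, 62.6 and 59.7 in E12.5 DMSO and 92.4 and 84.5 at E13.5 (-2.50, adjusted p = 0.0113). The opioid precursor gene Penk was at 28.8 and 32.5 CPM with SB431542, 83.9 and 81.5 in E12.5 DMSO and 106 and 101 at E13.5 (-1.84, adjusted p = 0.0239). That both DMSO libraries stood above SB431542 in these 4 genes follows from how they were chosen.

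Lamc3, a laminin chain, had -3.10 (adjusted p = 0.015), Tnfsf11, the osteoclast-inducing ligand RANKL, -3.03 (adjusted p = 0.0391), and the transcription factor gene Foxp4 -1.65 (adjusted p = 0.0291). Rasl11b, a small GTPase gene, was at 6.75 and 7.67 CPM with SB431542, 32.6 and 38.8 in E12.5 DMSO and 24.8 and 24.7 at E13.5, so that E12.5 DMSO was highest (-1.86, adjusted p = 0.0409). The desmosome gene Dsg2, Cpne7 and Apol7e complete the set, of which Apol7e shares 83.4% of its 31-base words with other genes and is uncertain. On the higher side Scd1, the fatty acid desaturase, stood at 231 and 217 CPM with SB431542, 105 and 106 in E12.5 DMSO and 70.3 and 76.4 at E13.5 (1.53, adjusted p = 0.0416), and Fsd1, a microtubule-associated protein gene, at 14.8 and 11.8 CPM with SB431542, 4.07 and 4 in E12.5 DMSO and 1.37 and 2.05 at E13.5 (2.87, adjusted p = 0.0413). The other of the 3, AC087559.3, had counts in 1 of the 2 SB431542 columns and in no other column. Of the 27 genes, Pmepa1 and Aspn kept their calls in the fit on the members alone.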

How the data were processed

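RNA-seq was measured in 8 samples in 4 groups of 2, grouped by the labels. Expected counts per gene, whole numbers and not scaled between libraries, were deposited by the authors. Per the submitters' processing notes the tools include Salmon, HISAT2, SAMtools, deepTools and DESeq2 (no roles or versions) and the build is mm10. The sources used here do not name the annotation. Estimation by Salmon assigns reads among transcripts, so near-identical genes can trade counts. The paired columns of the SMARTer groups were summed to 1 library each, giving 5 libraries of 5995709 to 30975010 counts, and whether the 2 SIS3 samples came from separate cultures is not stated, so their spread may be technical.

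Library sizes were TMM-normalised and genes filtered with filterByExpr, and 19022 genes of the whole table were tested with edgeR 4.0.16 (R 4.3.3): a quasi-likelihood F test, robust estimates, group as the factor, Benjamini-Hochberg adjustment at 0.05. The fit has 1 residual degree of freedom plus 12.49 borrowed across genes, and a biological coefficient of variation of 29.3%. SE is the log2 fold change divided by the square root of F. The floor for a library at 0 is 3 counts (0.107 CPM for SB431542, 0.171 for E13.5). Counting intervals are exact at 95%, and like floors they cover counting error alone, no molecular identifiers being named in the labels. Gene positions, transcript lengths and shared 31-base words are from GENCODE M21 and promoter windows from RefSeq, both on GRCm38. Gene names were in the file.

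Genes are named by 3 rules: fixed genes, the 12 largest called rises and falls among genes averaging at least 5 CPM with under 50% of shared 31-base words, and up to 4 genes per list by p (some genes of the first and last rules are not reported here). The 27 genes by place of the E12.5 DMSO level were added after seeing values. The members, lists and rules were chosen with earlier results of these data known. Alternatives covered scaling, DESeq2 1.42.0, filters, the genes fitted, robustness, single columns, each column left out, shared sequence and trends on GC content and length. The scripts were tested on counts simulated with the fitted dispersion. Recovered were 2 of 67 planted 2-fold changes, 36 of 67 4-fold changes and 57 of 66 8-fold changes, with 1 false call. A gene not called can thus still differ by 4-fold or more. Changes were planted only in genes over 5 CPM, so this recovery does not cover lower genes.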

Additional observations from a re-analysis of the deposited data

How the results depend on the processing

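The number of called members moved with the settings of the fit, higher and lower in SB431542 than at E13.5 being 163 and 225. It was 178 and 295 with size factors of DESeq2, 117 and 168 with the DESeq2 test, 167 and 239 without robust estimates, 505 and 609 with no filter on low counts, 5 and 11 among genes with a mean of at least 5 CPM, and 12 and 17 fitted on the members only. Alternatives added after the data were seen gave 410 and 529 without genes sharing 50% or more of their 31-base words, 39 and 52 with GC and length trends removed, and 107 and 162 counting members with over 3 counts in both libraries. The fits on members only, with trends removed and at a mean of 5 CPM called no member outside the main set. Each deposited column taken as a replicate gave 3963 and 3761 from all 8 columns and 5588 and 4628 from the 4 columns compared. With the replicate number as a block all 8 columns gave 3755 and 3577. Same-numbered columns of SB431542 and E13.5 did not deviate together (correlation -0.003). Paired columns differ by about the sampling noise, so this cannot show whether the numbers pair the samples. Columns left out in turn gave 44 to 166 higher and 68 to 266 lower. Leaving out a SIS3 library leaves no residual degrees of freedom and was not run. The median absolute log2 difference between SB431542 and E13.5 DMSO was 0.495 at a mean of 1 CPM, 0.375 at 20 CPM and 0.427 with size factors. Between SB431542 and E12.5 DMSO it was 0.187, 0.145 and 0.163, and between the DMSO stages 0.483, 0.372 and 0.413. The cause of these shifts was not tested. With 1 library a side and the spread taken from another kit, the median confidence interval of a member (1.08 to either side) is wider than a 2-fold difference.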
